A study of Mus musculus with 6 samples.

Results

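The 10 genes followed here were taken as a set of resident alveolar macrophage genes of the mouse lung. They were read across 6 single-cell libraries: Kcnip4, Spag11b, Ear1, Ear2, Ear6, Plet1, Siglecf, Krt79, Chil3 and Htr2c. They are 10 of the 29492 gene symbols listed in the files. All 10 were matched by symbol in each library, and all 10 passed the filter on low counts. They were chosen with their levels in these 3 groups in view, so every level and fold change of a member is a description and carries no p-value. Cells were captured with BD Rhapsody, a microwell system that gives each cell a barcode and each transcript a unique molecular identifier (UMI). Lungs of male C57BL/6J mice aged 12 weeks were taken on day 3, with 2 replicate libraries in each of 3 groups. Each replicate is taken here as 1 mouse. The SLC+LPS mice received LPS at 1 mg/kg together with SLC-Gq activation, given 7 times. The LPS mice received LPS at 1 mg/kg, and the PBS mice received PBS. SLC stands for the subcoeruleus nucleus, a brainstem nucleus named in the series title. All mice carry the same strain label, and no group with SLC activation but without LPS was analysed. The agent and the cells that carried the Gq construct, the route of LPS and the timing of the 7 activations are not given in the sources used here. LPS, the lipopolysaccharide of the outer membrane of Gram-negative bacteria, signals through Toll-like receptor 4.

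Alveolar macrophages live on the air side of the alveolus. They descend from fetal monocytes, renew themselves locally, and clear surfactant, debris and microbes. Their identity depends on the growth factor GM-CSF, on TGF-beta and on the nuclear receptor PPAR-gamma. During acute inflammation, monocytes from the blood enter the same space and can become macrophages that at first lack much of the resident programme. Siglecf encodes a sialic acid-binding inhibitory receptor whose protein is used, with CD11c, to recognise mouse alveolar macrophages. Chil3 encodes Ym1, a secreted chitinase-like lectin, and Ear1, Ear2 and Ear6 encode secreted ribonucleases of the eosinophil-associated family. Plet1 encodes a GPI-anchored surface protein, Krt79 a keratin, Spag11b a defensin-like peptide first known from the epididymis, Htr2c a serotonin receptor and Kcnip4 a calcium-binding partner of potassium channels.

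Alveolar macrophage barcodes were taken as those with at least 500 UMIs and at least 2 of 4 gate genes detected, none of which is a member. The gate genes are Marco, a scavenger receptor, Ctsk, a lysosomal protease, Atp6v0d2, a proton pump subunit, and Slc39a2, a zinc transporter. The gate held 1326 and 733 barcodes in SLC+LPS_1 and SLC+LPS_2, 972 and 758 in LPS_1 and LPS_2, and 1056 and 1347 in PBS_1 and PBS_2. These are 5.56% to 9.82% of all barcodes with at least 500 UMIs. No gated barcode was shared between libraries. Gated barcodes were deeper in mice given LPS, with a median of 9509 and 7381 UMIs in the SLC+LPS libraries and 7510 and 11777 UMIs in the LPS libraries, against 5236.5 and 4252 UMIs in the PBS libraries. A lower level can mean fewer gated barcodes holding the gene or less of its RNA per barcode, which these sums cannot tell apart. Levels are given in CPM, the usual depth-scaled unit, computed as the share of a gene in the UMIs summed over the gated barcodes of a library. The gate genes themselves differed between groups. Ctsk had 2157 and 3152 CPM in the SLC+LPS libraries and 2876 and 2846 CPM in LPS, against 792 and 1045 CPM in PBS. Atp6v0d2 went the other way, at 825 and 959 CPM in SLC+LPS and 792 and 1465 CPM in LPS, against 1673 and 1499 CPM in PBS. The gate may thus admit different barcodes in different groups, which was not tested.

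LPS_2 stood apart from the other 3 libraries of mice given LPS. Of its gated barcodes, 75.9% had at least 3 gate genes, against 49.2% and 43.5% in the SLC+LPS libraries, 33.5% in LPS_1, and 39.8% and 50.6% in the PBS libraries. The summed level of 4 classical monocyte markers (Ly6c2, Ccr2, F13a1 and Ms4a4c) in gated barcodes was 1675 and 3044 CPM in the SLC+LPS libraries, 1952 CPM in LPS_1 and 724 CPM in LPS_2, against 77.2 and 127 CPM in the PBS libraries. All 4 markers were detected in each library. The 4 interstitial macrophage markers (C1qa, C1qb, C1qc and Ms4a7) summed to 379 and 626 CPM in the SLC+LPS libraries, 703 CPM in LPS_1 and 105 CPM in LPS_2, against 92.2 and 199.98 CPM in the PBS libraries. Fibroblast markers (Col1a2, Col3a1, Dcn and Pdgfra) summed to 1479 and 1869 CPM in the SLC+LPS libraries, 2018 CPM in LPS_1 and 55.6 CPM in LPS_2, against 3073 and 2730.4 CPM in the PBS libraries. Of the gated barcodes, 36.8% and 32.5% also passed the fibroblast gate in the SLC+LPS libraries, 42.3% in LPS_1 and 1.98% in LPS_2, against 50.3% and 51.0% in the PBS libraries. Club cell markers (Scgb1a1, Scgb3a2, Cyp2f2 and Bpifa1) summed to 1090.2 and 206 CPM in the SLC+LPS libraries, 676 CPM in LPS_1, where Bpifa1 was at 0, and 459 CPM in LPS_2, against 3751 and 7355 CPM in the PBS libraries. The club cell gate was passed by 12.8% and 6.55% of gated barcodes in the SLC+LPS libraries, 7.92% in LPS_1 and 1.45% in LPS_2, against 37.3% and 65.3% in the PBS libraries. LPS_2 thus had the lowest share of gated barcodes passing these 2 gates, and PBS the highest. Passing a gate does not show that a barcode is a cell of that class. Values in LPS_1 and LPS_2 are given separately throughout. In gated barcodes that passed no other class gate, the log2 fold change against PBS was -4.40 ± 0.55 (SE) for Kcnip4, -2.05 ± 0.54 for Siglecf, -2.17 ± 0.89 for Plet1 and 3.68 ± 0.38 for Ear6 in SLC+LPS. For LPS it was -3.52 ± 0.52 for Kcnip4, -1.26 ± 0.51 for Siglecf, -0.20 ± 0.85 for Plet1 and 3.38 ± 0.38 for Ear6. This subset kept unequal parts of the gate: 25.9% and 17.1% in the SLC+LPS libraries and 18.0% and 65.6% in LPS_1 and LPS_2. In PBS_1 and PBS_2 it kept 29.1% and 15.4%. The subset was not matched for depth, and mean Kcnip4 in PBS was 573 CPM in it, beside 278 CPM in all gated barcodes.

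In gated barcodes the members followed several patterns. Kcnip4, Spag11b, Siglecf and Htr2c were lower in all 4 libraries of mice given LPS than in both PBS libraries. Ear1, Ear2 and Plet1 were far below both PBS libraries in 3 of these 4 libraries, while LPS_2 lay close to or above PBS. Krt79 and Chil3 were also low in LPS_1, but both groups given LPS overlapped with PBS. Ear6 went the other way, and was higher in all 4 libraries than in PBS. These patterns were read from the values and are no test.

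**Figure D1:**
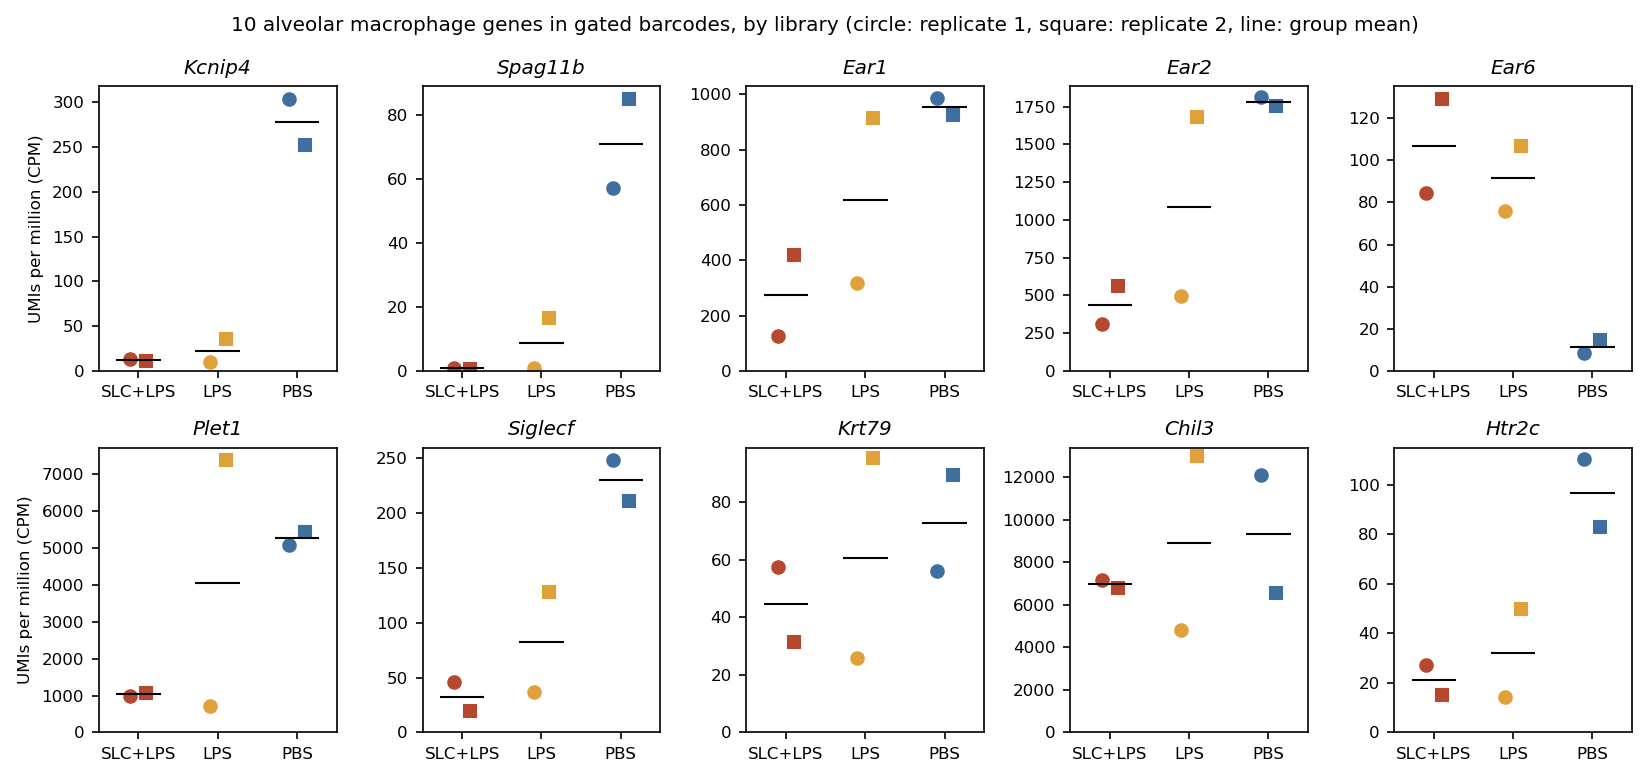
Level of each of the 10 genes in gated alveolar macrophage barcodes (vertical axis, CPM from 0), with the groups SLC+LPS, LPS and PBS from left to right, a circle for replicate 1, a square for replicate 2 and a line at the group mean. Kcnip4 lies between 9.40 and 35.6 CPM in the 4 libraries of mice given LPS and at 304 and 252 CPM in PBS, Ear6 lies above both PBS libraries in all 4, and the LPS_2 square sits near or above PBS for Ear1, Ear2, Plet1, Krt79 and Chil3.

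Among the secreted ribonucleases, Ear1 and Ear2 are the abundant forms and Ear6 the minor one. All 3 genes lie on chromosome 14, per RefSeq annotation of GRCm38.p6. Ear1 and Ear2 are separated by 3 other protein-coding genes. Ear6 lies apart from them, with 106 protein-coding genes between it and Ear2. The DNA upstream of their start sites is shown because Ear6 lay above and Ear1 and Ear2 below PBS in most libraries of mice given LPS. Each line gives bases -250 to -71 before the RefSeq start site, 5′ to 3′ on the gene's strand, from RefSeq on GRCm38.p6, which is an older build than the GRCm39 of the deposited counts. They lie at chr14:43819710-43819889 (minus strand) for Ear1, chr14:44102404-44102583 (plus strand) for Ear2 and chr14:51853518-51853697 (plus strand) for Ear6. Capitals mark matches to TTGCNNAA, the core of sites bound by C/EBP factors.
Ear1: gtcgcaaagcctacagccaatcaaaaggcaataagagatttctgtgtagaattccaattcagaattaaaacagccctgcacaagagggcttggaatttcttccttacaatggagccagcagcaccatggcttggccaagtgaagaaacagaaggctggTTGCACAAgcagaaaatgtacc
Ear2: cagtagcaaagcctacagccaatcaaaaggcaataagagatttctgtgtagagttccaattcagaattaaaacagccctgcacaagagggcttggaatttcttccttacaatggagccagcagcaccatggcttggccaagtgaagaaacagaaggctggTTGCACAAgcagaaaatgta
Ear6: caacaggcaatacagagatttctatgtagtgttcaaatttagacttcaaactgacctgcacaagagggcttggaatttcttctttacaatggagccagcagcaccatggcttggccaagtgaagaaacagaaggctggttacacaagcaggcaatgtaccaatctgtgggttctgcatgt

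Over 250 upstream bases, Ear1 and Ear2 were 97.6% identical, and Ear6 was 78.2% identical to Ear1 and 77.3% to Ear2. There were 4 motifs searched on both strands: TTGCNNAA, GAGGAA (the core of PU.1 sites), TATAAA (the TATA box) and TGACTCA (an AP-1 site). TTGCNNAA was found once in Ear1, at -92 to -85, and once in Ear2, at -90 to -83, with no overlap with another motif. In Ear6 the aligned bases are TTACACAA in place of TTGCACAA, which differ by G3A, counted from the 5′ end of the motif with the Ear1 base first. These bases lie further from the start site in Ear6 than in Ear1 and Ear2. The unprinted bases nearer the start site lie in an untranslated region of another Ear6 transcript, so this start site may not be its only one. The other 3 motifs were not found in these windows. Of 32851 RefSeq promoters of the same length, 9.56% hold TTGCNNAA, 23.3% GAGGAA, 12.4% TATAAA and 4.46% TGACTCA. A match is a description of letters and does not show that a factor binds.

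Ear1 had 128 and 421 CPM in SLC+LPS_1 and SLC+LPS_2, 318 and 916 CPM in LPS_1 and LPS_2, and 987 and 924 CPM in PBS_1 and PBS_2. Ear2 had 310 and 564 CPM in the SLC+LPS libraries, 497 and 1679 CPM in LPS_1 and LPS_2, and 1812 and 1756 CPM in the PBS libraries. For both genes SLC+LPS and LPS_1 were low, and LPS_2 lay just under PBS. For Ear1 the log2 fold change was -1.57 ± 0.71 (SE) for SLC+LPS against PBS and -0.29 ± 0.70 for LPS against PBS, and the second value was -1.37 without LPS_2 and 0.35 without LPS_1. For Ear2 these values were -1.81 ± 0.63, -0.37 ± 0.62, -1.63 and 0.32. The direction for LPS against PBS thus turned with the LPS library left out for both genes.

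Ear6 had 84.6 and 129 CPM in the SLC+LPS libraries and 76.0 and 107 CPM in the LPS libraries, against 8.39 and 14.7 CPM in the PBS libraries. All 4 libraries of mice given LPS lay above both PBS libraries, including LPS_2. Against PBS the log2 fold change was 3.43 ± 0.44 (SE) for SLC+LPS and 3.30 ± 0.44 for LPS. It stayed between 1.98 and 3.77 for LPS against PBS in all 17 edgeR alternatives, and was 2.93 without LPS_2 and 3.61 without LPS_1. A UMI of Ear6 was found in 32.0% and 34.7% of gated barcodes in the SLC+LPS libraries and in 23.3% and 45.4% in the LPS libraries, against 3.50% and 5.35% in the PBS libraries. The exact binomial 95% intervals were 29.5% to 34.6% in SLC+LPS_1 and 2.48% to 4.80% in PBS_1, and cover counting error only. In T cell barcodes, which should lack Ear6, 0% to 1.60% had a UMI, at a median of 1362 to 2238 UMIs.

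Since all 3 genes were counted in the same barcodes, the make-up of the family does not depend on how a library is scaled. Ear6 made up 16.2% and 11.6% of the UMIs of the 3 genes in the SLC+LPS libraries and 8.53% and 3.96% in LPS_1 and LPS_2, against 0.299% and 0.545% in the PBS libraries. The lowest of the 4 libraries of mice given LPS, LPS_2, had an exact 95% interval of 3.71% to 4.21%, and the higher PBS library one of 0.440% to 0.668%. With at least 3 gate genes the Ear6 share was 16.3% and 11.7% in the SLC+LPS libraries and 8.79% and 4.03% in the LPS libraries, against 0.421% and 0.631% in the PBS libraries. Ear2 exceeded Ear1 in each library, by 1.34 to 2.43 times. The Ear1 and Ear2 transcripts of GENCODE vM21 are 96.0% identical over their length and 98.7% over their last 300 bases, so their reads could be split between the genes and the Ear2 to Ear1 ratio is uncertain. Ear6 is 88.5% identical to Ear1 and 88.2% to Ear2, with no shared stretch over 58 bases.

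**Figure D2:**
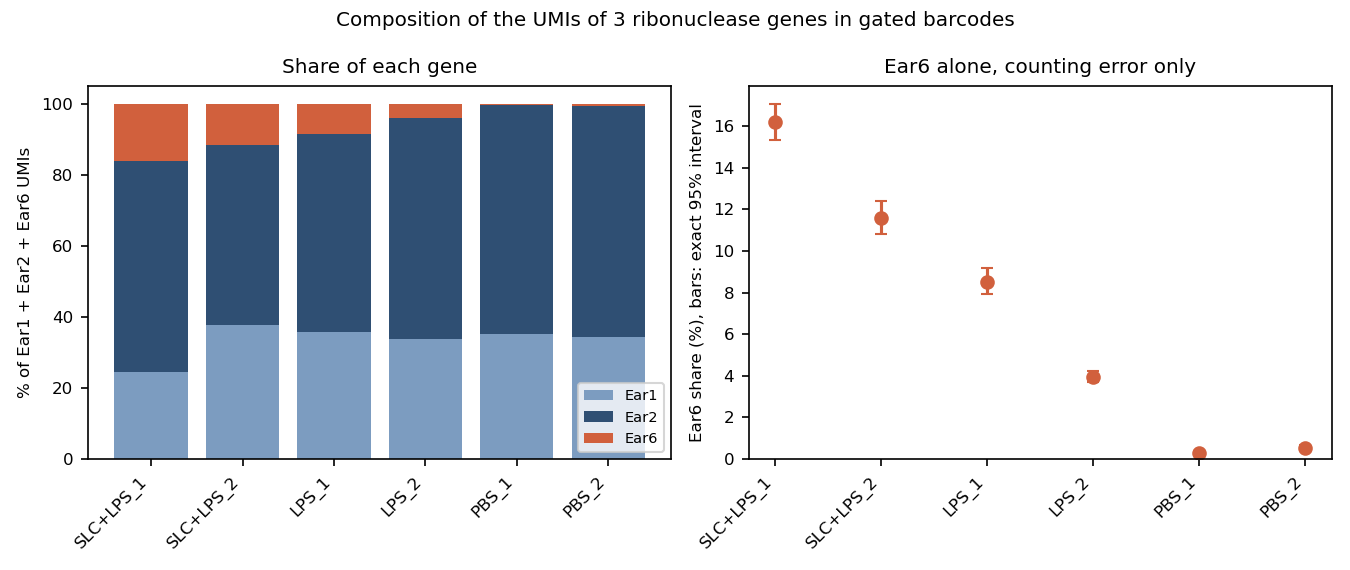
Left, the share of Ear1, Ear2 and Ear6 in the UMIs of the 3 genes in gated barcodes (vertical axis, %), for the SLC+LPS, LPS and PBS libraries from left to right. Right, the Ear6 share alone with its exact 95% interval: 16.2% and 11.6% in SLC+LPS and 8.53% and 3.96% in LPS, against 0.299% and 0.545% in PBS.

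Plet1 and Siglecf encode surface proteins. Plet1 had 993 and 1067 CPM in the SLC+LPS libraries, 726 and 7396 CPM in LPS_1 and LPS_2, and 5081 and 5445 CPM in the PBS libraries. The 2 LPS libraries lay on opposite sides of PBS, with LPS_2 above and LPS_1 far below. Plet1 had a log2 fold change of -2.14 ± 0.95 (SE) for SLC+LPS against PBS. For LPS against PBS it was 0.00 ± 0.91, with -2.65 without LPS_2 and 0.90 without LPS_1, so the group value describes neither library. A UMI of Plet1 was found in 57.3% and 52.0% of gated barcodes in the SLC+LPS libraries, in 41.6% and 91.2% in the LPS libraries, and in 89.6% and 88.5% in the PBS libraries, against 3.23% to 17.3% of T cell barcodes.

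Siglecf had 45.5 and 19.3 CPM in the SLC+LPS libraries and 36.8 and 128 CPM in LPS_1 and LPS_2, against 248 and 211 CPM in the PBS libraries. LPS_2 was the highest of the 4 libraries of mice given LPS but stayed below both PBS libraries. The log2 fold change was -2.61 ± 0.69 (SE) for SLC+LPS against PBS and -1.13 ± 0.66 for LPS against PBS, and the second was -2.43 without LPS_2 and -0.43 without LPS_1. The share of gated barcodes with a Siglecf UMI was 21.9% and 11.1% in the SLC+LPS libraries and 16.5% and 53.2% in the LPS libraries, against 53.7% and 45.4% in the PBS libraries and at most 0.546% of T cell barcodes. Here LPS_2 matched PBS in the share of barcodes although its level was lower, and its gated barcodes were more than 2 times as deep. After thinning each barcode to 500 UMIs the expected shares were 1.95% and 0.822% in the SLC+LPS libraries and 1.39% and 5.66% in the LPS libraries, against 10.6% and 8.82% in the PBS libraries.

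Chil3 was the most abundant member, with 7155 and 6768 CPM in the SLC+LPS libraries, 4800 and 12986 CPM in LPS_1 and LPS_2, and 12079 and 6545 CPM in the PBS libraries. The groups overlapped, and the 2 PBS libraries lay further apart than the group means. The log2 fold change was -0.21 ± 0.54 (SE) for SLC+LPS against PBS and 0.27 ± 0.54 for LPS against PBS, with -0.74 for the second without LPS_2 and 0.89 without LPS_1. The Chil3 and Chil4 transcripts are 94.3% identical with a shared stretch of 136 bases, so reads of both genes could be split. Krt79 also overlapped, with 57.4 and 31.5 CPM in the SLC+LPS libraries, 25.8 and 95.5 CPM in the LPS libraries, and 56.2 and 89.5 CPM in the PBS libraries. Its log2 fold change was -0.50 ± 0.66 for SLC+LPS against PBS and 0.08 ± 0.65 for LPS against PBS, with -1.29 for the second without LPS_2 and 0.79 without LPS_1.

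Kcnip4 and Spag11b had the lowest log2 fold changes of the members against PBS. Kcnip4 had 13.3 and 11.6 CPM in the SLC+LPS libraries and 9.40 and 35.6 CPM in the LPS libraries, against 304 and 252 CPM in the PBS libraries. Kcnip4 had a log2 fold change of -4.27 ± 0.68 (SE) for SLC+LPS against PBS and -3.28 ± 0.64 for LPS against PBS, and the second was -4.67 without LPS_2 and -2.55 without LPS_1. Spag11b had 0.998 and 0.671 CPM in the SLC+LPS libraries and 0.803 and 16.6 CPM in the LPS libraries, against 57.1 and 84.7 CPM in the PBS libraries. The first 3 of these rest on 13, 4 and 7 UMIs. For Spag11b the log2 fold change was -6.12 ± 1.34 for SLC+LPS against PBS and -2.66 ± 1.08 for LPS against PBS, with -6.23 for the second without LPS_2 and -1.69 without LPS_1.

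Htr2c, the serotonin receptor gene, had 27.3 and 15.1 CPM in the SLC+LPS libraries and 14.3 and 49.9 CPM in the LPS libraries, against 110 and 82.8 CPM in the PBS libraries. The groups given LPS did not overlap with PBS. The log2 fold change was -1.97 ± 0.64 (SE) for SLC+LPS against PBS and -1.24 ± 0.62 for LPS against PBS, and the second was -2.54 without LPS_2 and -0.54 without LPS_1.

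Read without scaling factors, 6 members had both LPS libraries below both PBS libraries and 1 had both above, and for SLC+LPS against PBS these counts were 7 and 1. Over all 13411 genes tested, 41.6% had both LPS libraries lower and 14.1% higher, and for SLC+LPS the shares were 44.9% lower and 20.3% higher. With TMM factors, which correct for a shift of the median gene, 4 members were lower and 1 higher in LPS, and 7 lower and 1 higher in SLC+LPS. The shares of all genes were then 27.4% lower and 25.2% higher for LPS, and 33.8% lower and 31% higher for SLC+LPS. Ear1 and Ear2 were lower in LPS without overlap on unscaled levels and overlapped with PBS under TMM, as Plet1, Krt79 and Chil3 did on both scales. Unscaled levels moved the median of all genes by -0.26 on the log2 scale for LPS against PBS and by -0.19 for SLC+LPS against PBS relative to TMM, and all fold changes given here are relative to the TMM-scaled median. Since the members were chosen on these contrasts, nothing is read from these counts. The median log2 fold change of the 10 members was -0.33 for LPS against PBS, beside 0.02 over all genes, and -1.89 for SLC+LPS against PBS, beside -0.01 over all genes. Both comparisons share the PBS libraries.

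For SLC+LPS against LPS, each of the 10 members overlapped between the groups, where 15.5% of all genes lay higher and 9.56% lower without overlap (13% and 11.3% with TMM factors). The log2 fold change ranged from -3.46 ± 1.28 (SE) for Spag11b to 0.13 ± 0.39 for Ear6, and was -2.14 ± 0.95 for Plet1, -1.49 ± 0.67 for Siglecf, -1.44 ± 0.63 for Ear2 and -1.28 ± 0.71 for Ear1. These differences rested on LPS_2. Without it, the values were 0.13 for Spag11b, 0.52 for Plet1, -0.16 for Siglecf, -0.17 for Ear2 and -0.19 for Ear1. Without LPS_1 they were -4.38 for Spag11b, -3.01 for Plet1, -2.14 for Siglecf, -2.10 for Ear2 and -1.90 for Ear1. Set against LPS_1 alone, the SLC+LPS libraries lay on both sides of it for Ear1, Ear2, Siglecf and Spag11b. Ear1 was at 128 and 421 CPM in the SLC+LPS libraries against 318 CPM in LPS_1, and Siglecf at 45.5 and 19.3 CPM against 36.8 CPM. Plet1, Krt79, Chil3, Ear6, Kcnip4 and Htr2c were above LPS_1 in both SLC+LPS libraries, and no member was below it in both. Of the 13411 genes tested, 0 passed the edgeR quasi-likelihood test at a Benjamini-Hochberg adjusted p under 0.05 for SLC+LPS against LPS. At an unadjusted p under 0.05 there were 263 (1.96%), and DESeq2 called 3 genes that are no members.

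Ear1, Ear2, Plet1, Siglecf, Chil3 and Ear6 were higher in barcodes with 3 gate genes than in those with 2 in each library. In the PBS libraries, barcodes with exactly 2 gate genes had 788 and 629 CPM of Ear1, and those with 3 had 1285 and 1102 CPM. With exactly 2 gate genes Ear1 was at 19.3 and 52.2 CPM in the SLC+LPS libraries and 65.4 and 292 CPM in LPS_1 and LPS_2, while with 3 it was at 151 and 657 CPM in the SLC+LPS libraries and 501 and 970 CPM in the LPS libraries. Just outside the gate, barcodes with 1 gate gene had 9.84 and 23.7 CPM of Ear1 in the SLC+LPS libraries and 22.1 and 18.7 CPM in the LPS libraries, against 123 and 103 CPM in the PBS libraries. Of the barcodes with exactly 2 gate genes, 39.1% and 52.2% also passed the classical monocyte gate in the SLC+LPS libraries and 47.2% and 23.0% in LPS_1 and LPS_2, against 1.73% and 2.10% in the PBS libraries. The interstitial macrophage gate was passed by 25.1% and 37.7% of them in the SLC+LPS libraries and 34.7% and 8.74% in the LPS libraries, against 2.83% and 7.81% in the PBS libraries.

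**Figure D3:**
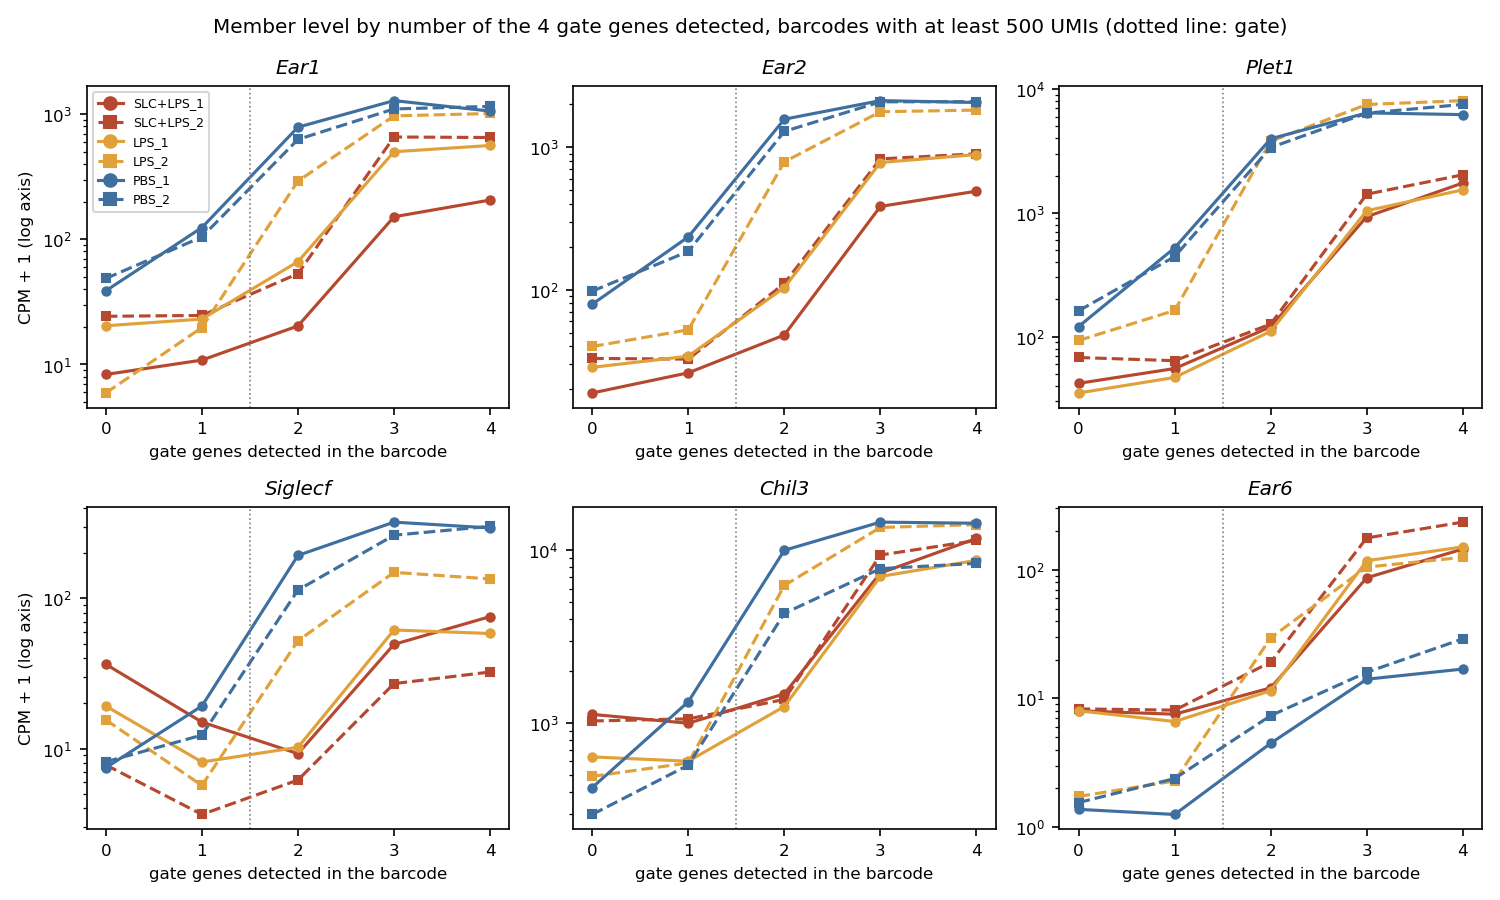
Level of 6 members (vertical axis, CPM + 1, log axis) by the number of gate genes detected in a barcode (horizontal axis, 0 to 4), 1 line per library, with the gate at the dotted line. For Ear1, Ear2, Plet1 and Chil3 the SLC+LPS libraries and LPS_1 stay low at 2 gate genes and climb at 3, while LPS_2 and PBS are already high at 2, and Ear6 in PBS stays below the others at 3 and 4.

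Requiring at least 3 gate genes left the patterns of level in place, but shares of barcodes with a UMI moved. Mean Plet1 shares became 87.5% in SLC+LPS, 92.4% in LPS and 99.1% in PBS, beside 54.6%, 66.4% and 89.0% in all gated barcodes. Mean Siglecf shares became 31.8%, 52.9% and 69.1%, beside 16.5%, 34.8% and 49.6%. Plet1 was then at 1472 and 1665 CPM in the SLC+LPS libraries and 1228 and 7873 CPM in LPS_1 and LPS_2, against 6352 and 6847 CPM in the PBS libraries. Siglecf was at 65.9 and 28.2 CPM in the SLC+LPS libraries and 59.3 and 138 CPM in the LPS libraries, against 312 and 278 CPM in the PBS libraries. Ear6 was at 125 and 200 CPM in the SLC+LPS libraries and 129 and 117 CPM in the LPS libraries, against 13.98 and 20.3 CPM in the PBS libraries. Krt79 and Chil3 overlapped again. With barcodes that passed the classical monocyte or the interstitial macrophage gate removed as well, Plet1 was at 1636 and 1833 CPM in the SLC+LPS libraries and 1618 and 8613 CPM in the LPS libraries, against 6478 and 6923 CPM in the PBS libraries. Siglecf was then at 76.1 and 29.7 CPM in the SLC+LPS libraries and 65.7 and 147 CPM in the LPS libraries, against 312 and 284 CPM in the PBS libraries. Plet1 in SLC+LPS and LPS_1, and Siglecf in all 4 libraries of mice given LPS, thus stayed below both PBS libraries without these barcodes.

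Averaged over the 2 libraries of a group, each member was highest in the alveolar macrophage gate, but Ear2, Chil3, Siglecf and Plet1 were also found in another class. The classes here were set by 4 markers each, and a barcode that passed more than 1 gate was left out. Ear2 was at 115 and 175 CPM in nonclassical monocyte barcodes of the SLC+LPS libraries and at 331 and 214 CPM in those of the LPS libraries, against 421 and 557 CPM in those of the PBS libraries. Ear2 was detected there in 20% to 47.9% of barcodes, and in 1.84% to 8.93% of T cell barcodes. Chil3 was at 1051 to 2640 CPM in classical monocyte barcodes, and at 42.7 to 492 CPM in T cell barcodes. Siglecf was at 53.3 and 14.3 CPM in neutrophil barcodes of the SLC+LPS libraries and at 42.3 and 35.8 CPM in those of the LPS libraries, against 28.1 and 33.0 CPM in those of the PBS libraries. In T cell barcodes Siglecf was at most 3.76 CPM. In LPS_1 the Siglecf level of alveolar macrophage barcodes that passed no other gate, 40.1 CPM, was below that of neutrophil barcodes. Plet1 reached 1921 CPM in dendritic cell barcodes of LPS_2, which were 14, and 86.2 to 399 CPM in those of the other 5 libraries.

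**Figure D4:**
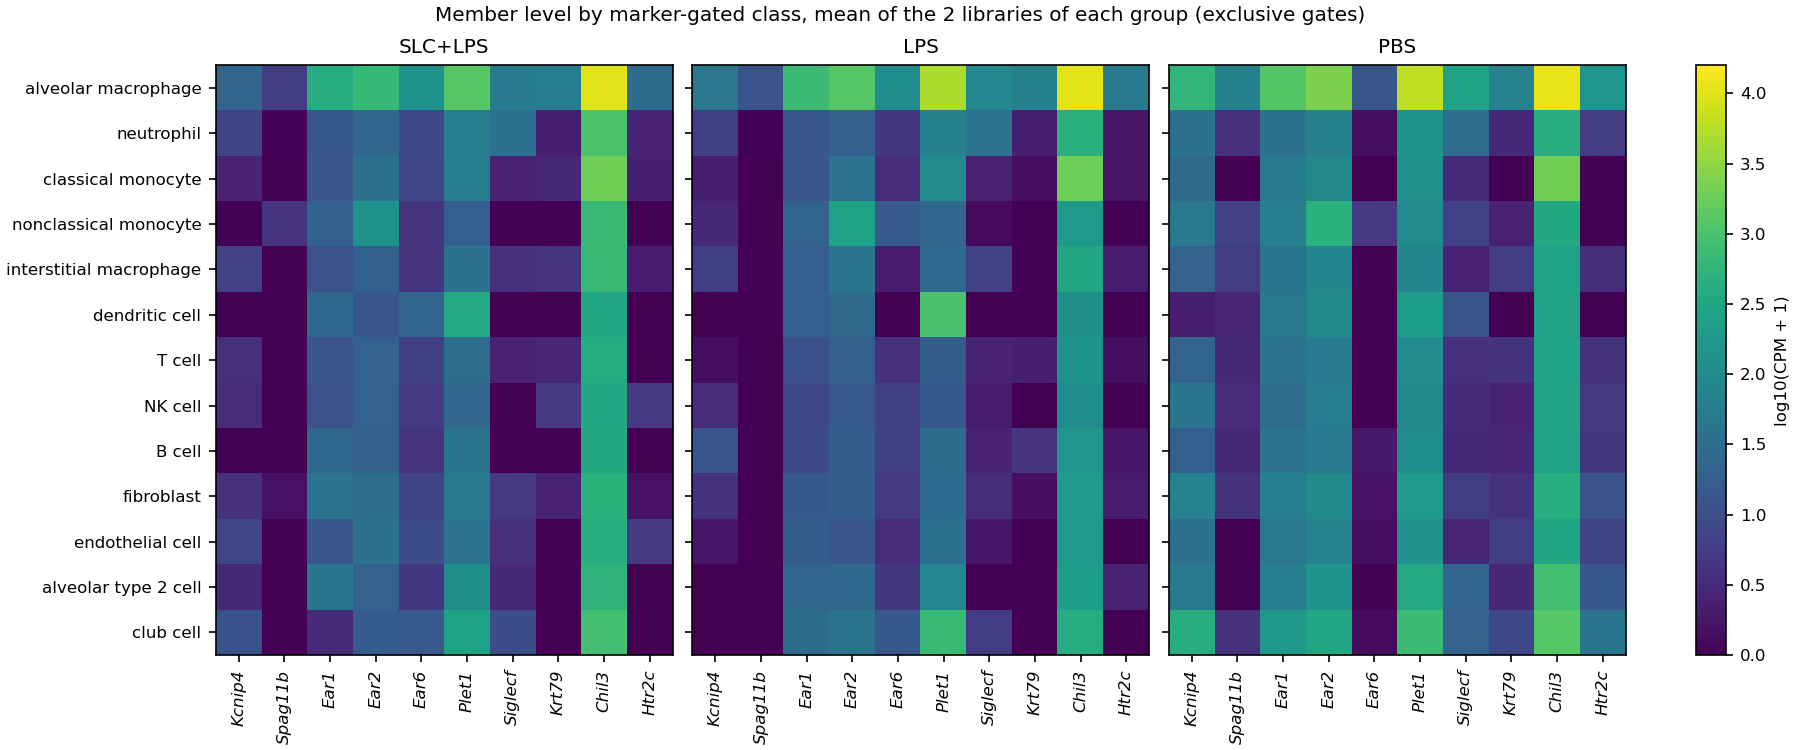
Level of the 10 genes (columns) in barcodes of 13 marker-gated classes (rows), as the mean of the 2 libraries of SLC+LPS, LPS and PBS from left to right (colour, log10 of CPM + 1). The alveolar macrophage row is the brightest for each gene, and Chil3 in classical monocyte barcodes, Ear2 in nonclassical monocyte barcodes and Siglecf in neutrophil barcodes stand out from their columns.

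Kcnip4 was distributed unlike the other members. Only 12.6% and 12.3% of all its UMIs lay in gated barcodes in the SLC+LPS libraries and 10.4% and 27.8% in the LPS libraries, against 20.8% and 23.0% in the PBS libraries. For Ear1 the same share was 69.0% to 91.1%. Barcodes with under 100 UMIs, which hold mostly free RNA, had 229 and 114 CPM of Kcnip4 in the SLC+LPS libraries and 131 and 150 CPM in the LPS libraries, against 649 and 618 CPM in the PBS libraries. This is 2.14 to 17.3 times the level in gated barcodes, while for Ear1 the ratio was 0.104 to 0.297 and for Htr2c 0.591 to 2.01. Kcnip4 thus took a larger share of the UMIs in these near-empty barcodes than in gated ones in each library.

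Within gated barcodes, Kcnip4 and Htr2c were also lower in deeper barcodes in PBS. From 500 to under 2000 UMIs per barcode, Kcnip4 was at 53.5 and 18.0 CPM in the SLC+LPS libraries and 15.1 and 169 CPM in the LPS libraries, against 1292 and 952 CPM in the PBS libraries. At 10000 UMIs or more it was at 9.55 and 8.63 CPM in the SLC+LPS libraries and 7.33 and 22.6 CPM in the LPS libraries, against 49.1 and 28.7 CPM in the PBS libraries. The 4 libraries of mice given LPS were below both PBS libraries in each depth range, but the gap narrowed with depth. From 5000 to under 10000 UMIs the log2 fold change of Kcnip4 was -3.19 for SLC+LPS against PBS and -1.57 for LPS against PBS, beside -4.27 and -3.28 over all gated barcodes. Htr2c at 10000 UMIs or more was at 30.4 and 20.1 CPM in the SLC+LPS libraries and 18.3 and 49.7 CPM in the LPS libraries, against 50.003 and 53.6 CPM in the PBS libraries, so LPS_2 lay next to PBS there.

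**Figure D5:**
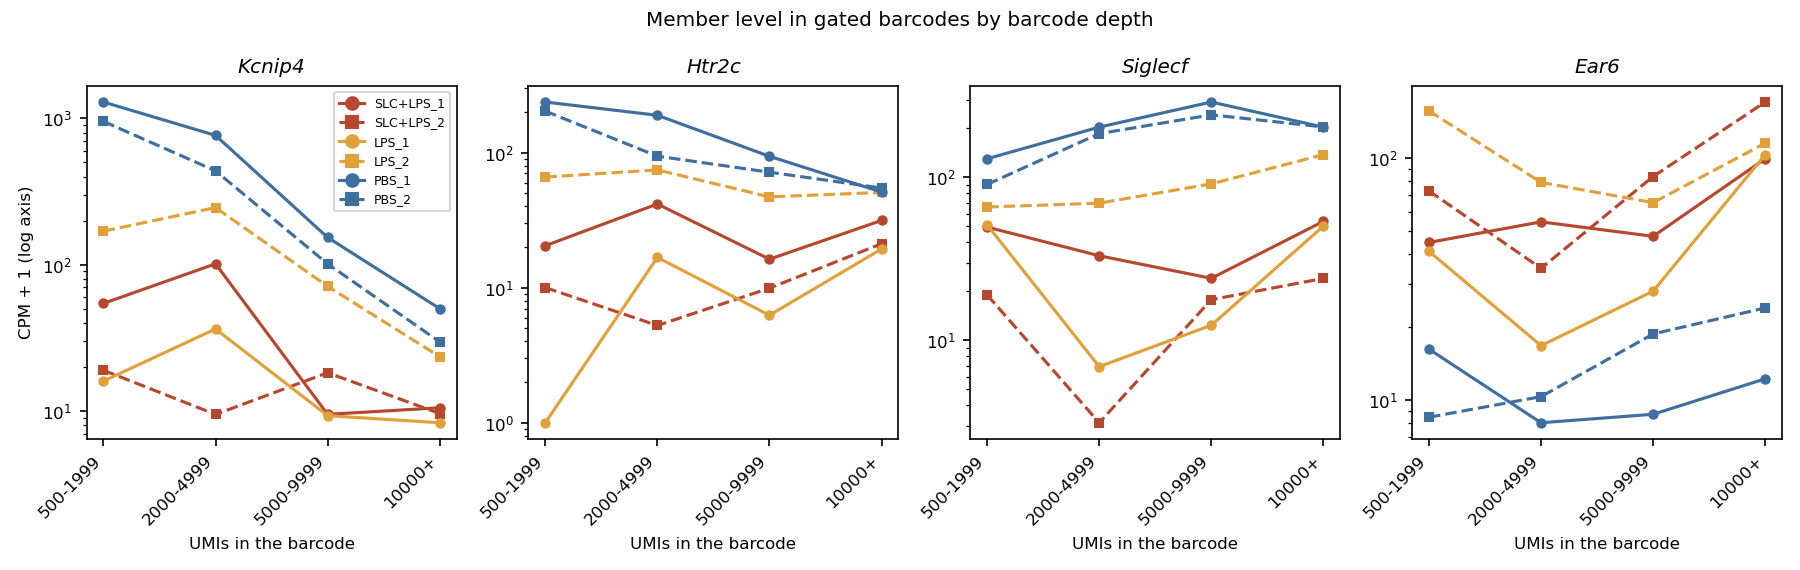
Level of Kcnip4, Htr2c, Siglecf and Ear6 (vertical axis, CPM + 1, log axis) in gated barcodes by the UMIs in the barcode (horizontal axis, 4 ranges), 1 line per library. Kcnip4 in PBS drops from left to right, to 49.1 and 28.7 CPM at 10000 UMIs or more, while the SLC+LPS libraries and LPS_1 stay low in each range, and Ear6 is higher in mice given LPS in each range.

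Other genes in the same gated barcodes were tested, since they were not chosen as members. In the edgeR quasi-likelihood test with Benjamini-Hochberg adjustment over all 13411 genes, 48 (0.358%) passed at an adjusted p under 0.05 for SLC+LPS against PBS, with 0.298% higher and 0.0597% lower, and 47 of them are no members. For LPS against PBS 184 (1.37%) passed, with 0.79% higher and 0.582% lower, and 183 of them are no members. At an unadjusted p under 0.05 these shares were 19.8% for SLC+LPS and 20.8% for LPS. The 5 largest rises among those that passed for LPS against PBS were Saa3, Ly6i, Nos2, Arg1 and Inhba, with log2 fold changes of 6.25 to 9.08, and the 5 largest falls were Scgb3a1, Inmt, Sec14l3, Pcolce2 and Gsn, with -5.55 to -3.23. Scgb3a1 is an airway secretory gene, and the club cell and fibroblast markers given above were also lower in mice given LPS in these barcodes. In gated barcodes that passed no other class gate, Inmt still passed (-5.46, adjusted p = 0.0192 by edgeR). Pcolce2 (-4.79, adjusted p = 0.0722 by edgeR) and Gsn (-2.99, adjusted p = 0.0627 by edgeR) did not, and Scgb3a1 and Sec14l3 were not among the genes tested. A barcode with fewer than 2 markers of another class stays in this subset. Whether the RNA of these 5 genes came from macrophages or from other cells was not tested. Of the 5 largest rises, Inhba still passed there (6.23, adjusted p = 0.00338 by edgeR) and the other 4 did not, with Arg1 at 1.76 (adjusted p = 0.587 by edgeR). Of 21 tested genes of a list of further alveolar macrophage genes, 1 was lower and 20 did not pass for LPS against PBS, with a median log2 fold change of -0.59 beside 0.02 over all genes. For SLC+LPS against PBS, 1 was lower and 20 did not pass, with a median of -1.20 beside -0.01. The gene that fell in both was Krt19, a keratin, with 8.44 and 4.86 CPM in the SLC+LPS libraries and 6.65 and 9.31 CPM in the LPS libraries, against 74.2 and 56.2 CPM in the PBS libraries. Its log2 fold change was -3.06 ± 0.39 (SE, adjusted p = 0.0442 by edgeR) for SLC+LPS against PBS and -2.72 ± 0.39 (adjusted p = 0.0407) for LPS against PBS. With no other class gate passed, Krt19 did not pass, at -2.05 (adjusted p = 0.0908 by edgeR) for SLC+LPS and -2.72 (adjusted p = 0.0627 by edgeR) for LPS. The 2 most abundant genes of the list that did not pass were Cd9, a tetraspanin, and Lpl, lipoprotein lipase. Lpl had 3085 and 3403 CPM in the SLC+LPS libraries and 2259 and 3738 CPM in the LPS libraries, against 2601 and 2599 CPM in the PBS libraries. Cd9 had 2450 and 1766 CPM in the SLC+LPS libraries and 1431 and 3781 CPM in the LPS libraries, against 3819 and 4114 CPM in the PBS libraries. Without LPS_2, 12 genes of this list were lower and 1 higher for LPS against PBS, with a median of -1.48, and without LPS_1, 4 were lower and 3 higher, with a median of -0.02. In both comparisons, 0 passed when either PBS library or either SLC+LPS library was left out. Without LPS_1 or LPS_2, 13 were lower and 1 higher for SLC+LPS against PBS.

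None of 14 receptor and transcription factor genes that act upstream of the alveolar macrophage programme passed for SLC+LPS or for LPS against PBS. Csf2ra, the GM-CSF receptor alpha chain, had 814 and 793 CPM in the SLC+LPS libraries and 753 and 470 CPM in the LPS libraries, against 766 and 614 CPM in the PBS libraries. Cebpb, a C/EBP factor, had 1315 and 603 CPM in the SLC+LPS libraries and 1105 and 810 CPM in the LPS libraries, against 840 and 707 CPM in the PBS libraries. Relatives of the members did not pass either: 7 Siglec family genes, 6 other ribonuclease genes or partners, and 2 other chitinase family genes were tested. Cd33, a Siglec family gene, had 455 and 463 CPM in the SLC+LPS libraries and 341 and 399 CPM in the LPS libraries, against 277 and 258 CPM in the PBS libraries. Rnase4, a secreted ribonuclease, had 70.2 and 70.4 CPM in the SLC+LPS libraries and 81.5 and 54.6 CPM in the LPS libraries, against 192 and 174 CPM in the PBS libraries. Both relatives thus lay on 1 side of PBS in all 4 libraries without passing the test.

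Of 10 genes of monocytes and monocyte-derived macrophages, 3 rose for LPS against PBS and 2 for SLC+LPS against PBS. Ly6c2, a surface protein of classical monocytes, had 1443 and 2778 CPM in the SLC+LPS libraries and 1629 and 570 CPM in the LPS libraries, against 33.4 and 31.3 CPM in the PBS libraries. Its log2 fold change was 6.25 ± 0.63 (SE, adjusted p = 0.0424 by edgeR) for SLC+LPS against PBS and 5.34 ± 0.61 (adjusted p = 0.0388) for LPS against PBS. Itgam, the CD11b integrin chain, had a log2 fold change of 4.58 ± 0.55 (adjusted p = 0.0442 by edgeR) for SLC+LPS against PBS and 4.08 ± 0.54 (adjusted p = 0.0388) for LPS against PBS. Ms4a4c rose for LPS against PBS, by a log2 fold change of 5.24 ± 0.86 (adjusted p = 0.0494 by edgeR). The 2 most abundant of the list that did not pass were Cd14, the LPS co-receptor, and Fn1, fibronectin. Cd14 had 1471 and 1672 CPM in the SLC+LPS libraries and 1779 and 1055 CPM in the LPS libraries, against 581 and 540.2 CPM in the PBS libraries. Left out singly, PBS_1, PBS_2 and SLC+LPS_1 each ended all calls of named genes. Ly6c2, Ms4a4c, Ccr2 and F13a1 of the monocyte list are also the 4 markers of the classical monocyte gate. None of 10 interstitial macrophage genes passed in either comparison. H2-Ab1, an MHC class II chain of that list, had 326 and 2287 CPM in the SLC+LPS libraries and 2445 and 249 CPM in the LPS libraries, against 983 and 1069 CPM in the PBS libraries. Within both groups given LPS, 1 library was well below and the other well above PBS. The share of gated barcodes that also passed the monocyte gate is set by markers on the monocyte list, so it is no separate result. With at least 3 gate genes and no monocyte or interstitial macrophage gate passed, 9 genes of the monocyte list were tested. There 1 was higher for SLC+LPS against PBS, with a list median of 0.44 beside 1.72 in all gated barcodes, and 0 passed for LPS against PBS, with 0.27 beside 1.64. With no other class gate passed, 6 were tested and 0 passed in either comparison. Removing barcodes by the monocyte gate lowers its own markers by construction, so nothing is read from these lower medians and lost calls.

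Across the 6 libraries, each member except Ear6 ran with the mean of the other 9, with a Pearson r of 0.64 for Chil3 to 0.99 for Plet1 on log2(CPM + 1) with TMM factors. For Ear6, r was -0.59. The non-member genes most like the mean of the 10 were Mmd, Ggnbp2, Purb, Mfap1a and Wwtr1, with r of 0.99 or more over 6 libraries and 3491 genes ranked. Wwtr1 had 57.0 and 48.9 CPM in the SLC+LPS libraries and 37.8 and 160 CPM in LPS_1 and LPS_2, against 146 and 152 CPM in the PBS libraries. Those running most opposite were Rassf2, Chil1, Lmnb1, Gpx4 and Adam8, with r from -0.99 to -0.98. Chil1, which encodes another chitinase-like protein, had 123 and 89.5 CPM in the SLC+LPS libraries and 113 and 12.0 CPM in LPS_1 and LPS_2, against 23.0 and 25.9 CPM in the PBS libraries. These values share library, depth and gate, and LPS_2 sits with PBS in both lists.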

How the data were processed

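Per the labels, lung cells were read as 6 single-cell libraries, with 2 replicates each for SLC+LPS, LPS and PBS. That a replicate is 1 mouse is a reading of these labels. The authors deposited unfiltered UMI count matrices, with 31589233 to 48641470 UMIs a library. The submitters' processing notes name the builds GRCm39 and mm39. The name of the counting tool was not given in the sources used here. Barcodes with at least 500 UMIs and at least 2 of 4 gate genes were kept, with no doublet calling. Their counts were summed per library and tested with edgeR 4.0.16 (TMM, filterByExpr, robust quasi-likelihood F test, all 6 libraries, group as the only term, Benjamini-Hochberg adjustment). DESeq2 1.42.0, other gates, filters and scalings, a replicate block and left-out libraries were alternatives. A fit without LPS_2 assumes that LPS_1 varies like the other groups. The edgeR step was tested on simulated data. An exact permutation test of 2 against 2 libraries cannot give a two-sided p under 0.333, and p-values speak only for the spread between these mice. Shares have exact Clopper-Pearson 95% intervals, for counting error only. Thinned shares are those expected when each barcode is drawn down to 500 UMIs. Named genes are the members, up to 4 that passed per list and comparison with up to 2 of the highest level that did not, the 5 most and least like the members, and the 5 largest rises and falls for LPS against PBS. Members, gate and lists were chosen with earlier results of these data known. The 2 libraries of a group differed beyond sampling noise, with a chi-square per degree of freedom of 45.8 in SLC+LPS, 85.8 in LPS and 9.81 in PBS. Promoters of 9 members were found in the RefSeq table, and transcripts came from GENCODE vM21.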

Additional observations from a re-analysis of the deposited data

How the results depend on the processing

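Against PBS, the log2 fold changes of Kcnip4, Spag11b, Siglecf, Htr2c and Ear6 kept their signs in all 17 edgeR alternatives. This held for LPS and for SLC+LPS. Those of Ear1, Ear2 and Plet1 also kept theirs for SLC+LPS against PBS. DESeq2 was not among these 17, and some of them left out a library outside the comparison. For LPS against PBS, Ear1, Ear2, Plet1, Krt79 and Chil3 changed sign in 1, 1, 8, 6 and 3 alternatives. Counts of other genes that passed were far less stable than these values. For LPS against PBS 183 passed, against 1187 with DESeq2, 2211 with no filter, 116 with at least 3 gate genes, 304 with other gate genes, 109 with the quality filter, 16 with no other class gate passed, 0 with only the 2 groups, and 0 to 3178 with 1 library left out. For SLC+LPS against PBS 47 passed, against 997 with DESeq2, 1805 with no filter, 75 with at least 3 gate genes, 214 with other gate genes, 17 with no other class gate passed, 2292 with only the 2 groups, and 0 to 2261 with 1 library left out. For SLC+LPS against LPS 0 passed, against 3 with DESeq2, 108 with no filter, and 0 to 1745 with 1 library left out. There were 2 alternatives chosen after seeing the data: in barcodes with 5000 to under 10000 UMIs 47 passed for LPS against PBS, and with at least 3 gate genes and no monocyte or interstitial macrophage gate passed 3 did. Without PBS_1, PBS_2 or SLC+LPS_1, 0 passed by edgeR for either comparison with PBS, and without LPS_1 3178 and 2261 did. The cause was not tested.

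The labels give groups the same replicate numbers, but same-numbered libraries did not deviate together (r of -0.25 to -0.01 across genes). With the replicate block 0 genes passed for LPS against PBS and 1 for SLC+LPS against PBS. With 2 mice a group, and 4 to 13 UMIs of Spag11b in 3 libraries of mice given LPS, small differences may be missed. The smallest difference that could be detected was not computed.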
